A study of Mus musculus with 10 samples.

Results

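The data describe 9 genes of the small leucine-rich proteoglycan (SLRP) family, Lum, Dcn, Bgn, Fmod, Ogn, Prelp, Aspn, Omd and Podn, in mouse aorta. They were chosen by gene symbol, and all 9 were measured, out of 22180 genes tested. SLRPs are secreted proteins whose leucine-rich repeats fold into a curved core that binds collagen fibrils and governs how thick and how evenly spaced those fibrils become. Many carry sulfated sugar chains, chondroitin or dermatan sulfate in some and keratan sulfate in others, and several bind growth factors of the TGF-beta family. In the artery wall they are made by smooth muscle cells and adventitial fibroblasts, and biglycan, the product of Bgn, is known for holding lipoproteins in the intima.

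The aortas came from 10 male C57BL/6 mice, and their RNA was read on 1 Affymetrix Mouse Gene 2.0 ST array each. The 5 double knockout mice lacked both ApoE and IL-17 and came from a cross of IL-17-/- into ApoE-/- mice, and the 5 ApoE knockout mice lacked ApoE alone. Both groups therefore lack ApoE, the apolipoprotein that clears lipoprotein remnants, and both were on high fat food for 3 weeks, starting at 8 weeks of age and ending with collection at 11 weeks. The comparison asks what the additional loss of the cytokine IL-17 does in the aorta at an early stage of hyperlipidemia. No wild-type aorta, and no mouse lacking IL-17 alone, is part of the comparison. The mice lacked the genes in every tissue, so an effect of the aortic wall itself cannot be told apart from one of the blood or of other organs. In whole tissue, fewer cells of a type and less RNA per cell cannot be told apart either.

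Values are log2 intensities of 1 probe set per gene, and changes are double knockout minus ApoE knockout. Across all genes, limma called 6721 at a Benjamini-Hochberg adjusted p of 0.05 (30.3%), with 22.8% of genes higher and 7.53% lower in the double knockout. Most of that excess lay among dim genes, and the median change over all genes was 0.10. It was -0.02 after quantile normalization and -0.11 after array medians were set equal. Array medians ran from 5.95 to 6.03 in the double knockout and from 5.76 to 5.80 in the ApoE knockout (exact permutation p = 0.0079, adjusted p = 0.016 over 4 array measures). The protocol texts of the groups differ, that of the ApoE knockout describing wild-type and caspase-1 deficient mice too, and the labels name no scan batch. If the groups were run separately, a batch effect and the genotype cannot be told apart. The labelled tissue was checked through Myh11, the smooth muscle myosin gene, which averaged 12.66 in the double knockout and 12.27 in the ApoE knockout.

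Of the 9 genes, 4 rose in the double knockout aortas, Lum, Fmod, Prelp and Podn, by 1.26-fold to 1.38-fold. The other 5, Dcn, Bgn, Ogn, Omd and Aspn, did not pass the test. Quantile normalization left 4 called higher and none lower. Centring on the array median left 2 called higher, Lum and Fmod. Dcn (-0.20, adjusted p = 0.031) and Ogn (-0.21, adjusted p = 0.040) were then called lower. On that scale 5641 of all 22180 genes were called lower, and genes with a mean value above 9 had a median change of -0.23. Relative to that median Dcn changed by 0.03 and Ogn by 0.02, and Prelp and Podn, whose calls were lost, by 0.36 and 0.42. As deposited, the share of all genes called higher was 22.8%. Among the 3141 genes with a mean value above 9, where all 9 lie, it was 11.4% with a median change of -0.03. In Lum, Fmod, Prelp and Podn every double knockout aorta lay above every ApoE knockout aorta, an arrangement found in 15.6% of all genes. The median change of the 9 was 0.15, beside 0.10 for all genes tested.

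**Figure D1:**
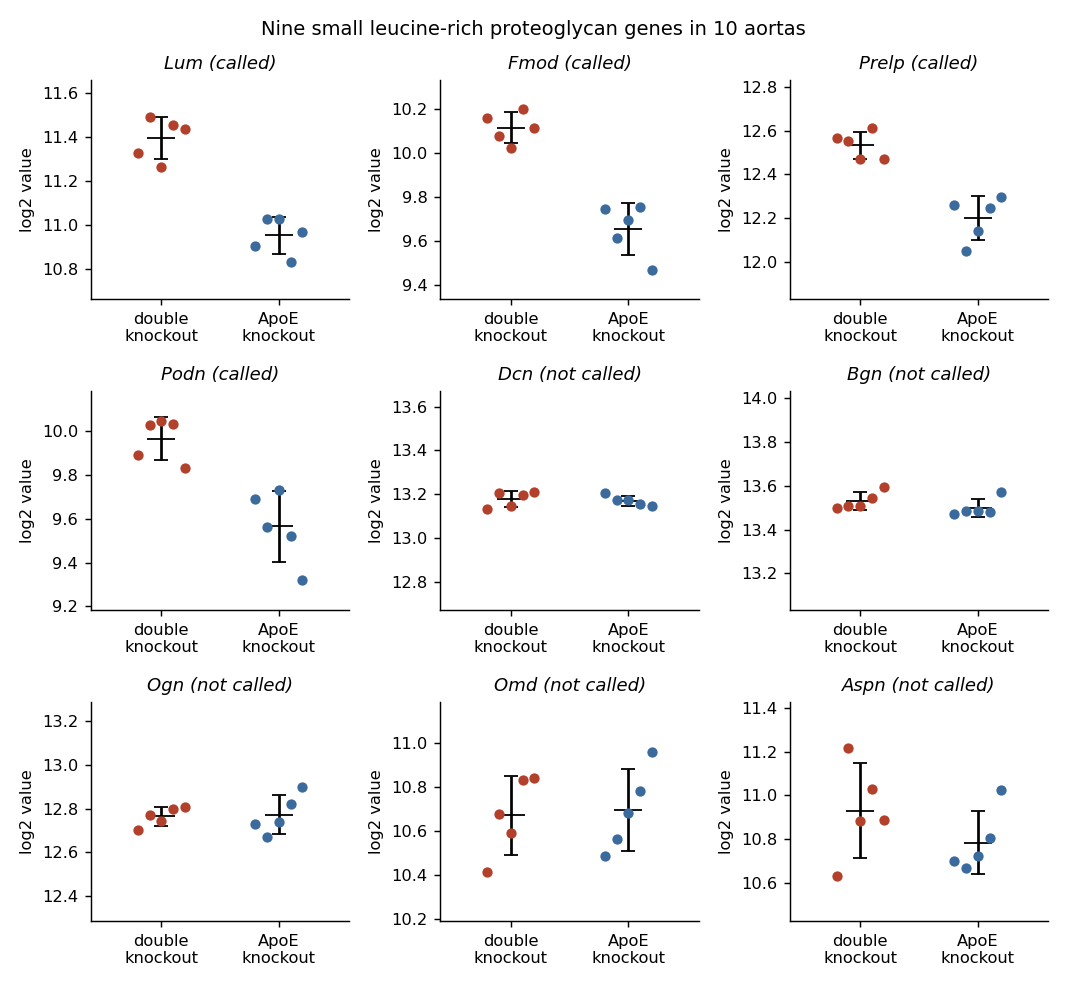
Log2 value of each member in the 5 double knockout aortas (red, left) and the 5 ApoE knockout aortas (blue, right), points in the order of the replicate numbers, with mean and SD; every panel spans 1 log2 unit. Lum, Fmod, Prelp and Podn show no overlap between the groups, while Dcn and Bgn vary little in either group and Omd and Aspn vary widely in both.

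Lum encodes lumican, a keratan sulfate proteoglycan that limits the thickness of collagen fibrils. Its log2 values were 11.33, 11.49, 11.27, 11.46 and 11.43 in the double knockout aortas, in the order of the replicate numbers, against 10.90, 11.03, 11.03, 10.83 and 10.97 in the ApoE knockout aortas. The lowest double knockout aorta lay 0.24 above the highest ApoE knockout aorta. The change was 0.44 (95% interval 0.29 to 0.60, SE 0.07, limma adjusted p = 0.0015, n = 5 per group), or 1.36-fold. Relative to the median of all genes it was 0.35.

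Dcn lies next to Lum on chromosome 10 and encodes decorin, the dermatan sulfate proteoglycan that binds type I collagen and TGF-beta. Dcn read 13.13, 13.21, 13.15, 13.20 and 13.21 in the double knockout, against 13.21, 13.17, 13.17, 13.15 and 13.15 in the ApoE knockout. The ranges overlap almost completely, and the change of 0.01 had a 95% interval from -0.11 to 0.13 (adjusted p = 0.92, limma, n = 5 per group). Lum and Dcn were also compared within each array. Lum minus Dcn was -1.78 ± 0.06 in the double knockout and -2.22 ± 0.09 in the ApoE knockout (SD, n = 5), a difference of 0.43 with no overlap (exact permutation p = 0.0079, the smallest this design allows, adjusted p = 0.040 over the 5 pairs compared). The pair was chosen after its values were seen, and the adjustment covers those 5 pairs only. Lum alone separated the groups by more than Dcn varied over all 10 arrays, so the lack of overlap follows from Lum. Dcn also lies near the top of the scale.

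Bgn encodes biglycan, the closest relative of decorin. Its values were 13.50, 13.51, 13.51, 13.54 and 13.59 in the double knockout and 13.47, 13.49, 13.49, 13.48 and 13.57 in the ApoE knockout. Replicate 5 was the highest aorta of each group, and the groups overlap. The change was 0.03 (95% interval -0.09 to 0.16, adjusted p = 0.69, limma, n = 5 per group). A second, dimmer probe set of Bgn averaged 11.17 in the double knockout and 10.90 in the ApoE knockout, a change of 0.26 (SE 0.09) that did not pass over all probe sets (limma adjusted p = 0.062, n = 5 per group). Bgn minus Dcn was 0.35 ± 0.03 in the double knockout and 0.33 ± 0.06 in the ApoE knockout (SD, 5 arrays each, p = 0.45 by exact permutation and 0.56 adjusted).

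The probe sets of Dcn and Bgn are among the brightest on the array, above 99.9% of genes, where array maxima ran from 13.78 to 13.88. Only 22 genes had a mean above 13, and 1 of them was called. The interquartile range of their changes was 0.09, against 0.31 for the 418 genes between 11 and 13. Whether the scale is compressed near its top was not tested.

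**Figure D2:**
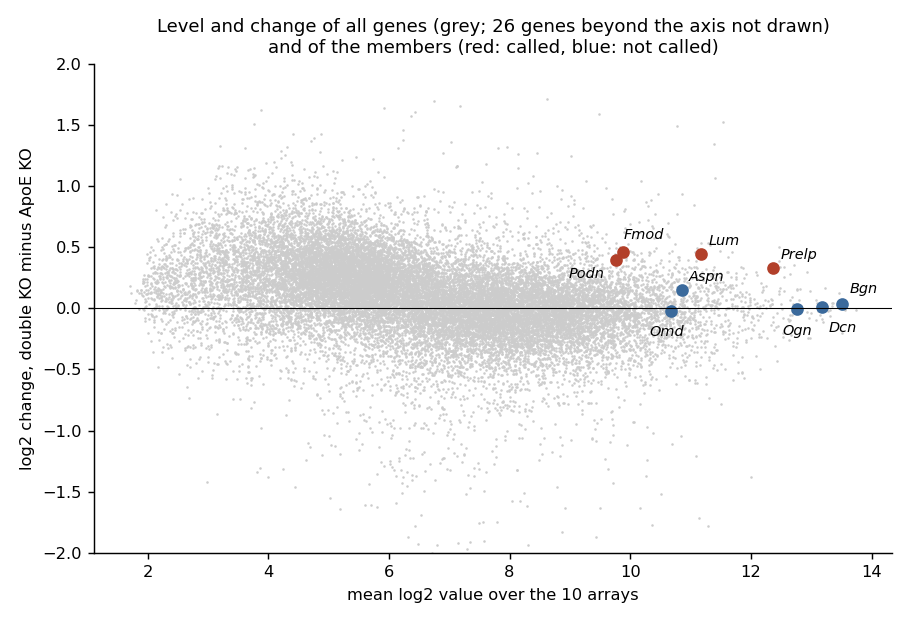
Change (double knockout minus ApoE knockout, log2) against mean log2 value for all genes (grey, 26 beyond the axis not drawn) and the members (red, called; blue, not called). Dcn and Bgn lie at the bright end, where changes of all genes narrow, and all 9 members lie above a mean value of 9.

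Fmod and Prelp are adjacent on chromosome 1. Fmod encodes fibromodulin, a keratan sulfate proteoglycan that shares a collagen binding region with lumican, and Prelp encodes a basic SLRP that binds collagen and heparan sulfate at basement membranes. The deposited arrays hold no sequence, so the 250 bases before the start of each gene are given from RefSeq (GRCm38.p6) to show the DNA that precedes these neighbors, which rose together. Capitals mark motif matches on either strand.
Fmod promoter, chr1:134037004-134037253, plus strand: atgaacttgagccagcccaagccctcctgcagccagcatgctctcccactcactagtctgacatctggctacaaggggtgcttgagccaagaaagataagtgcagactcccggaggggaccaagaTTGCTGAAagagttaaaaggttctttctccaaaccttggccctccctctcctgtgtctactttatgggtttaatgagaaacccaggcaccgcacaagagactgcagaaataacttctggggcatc
Prelp promoter, chr1:133921402-133921651, minus strand: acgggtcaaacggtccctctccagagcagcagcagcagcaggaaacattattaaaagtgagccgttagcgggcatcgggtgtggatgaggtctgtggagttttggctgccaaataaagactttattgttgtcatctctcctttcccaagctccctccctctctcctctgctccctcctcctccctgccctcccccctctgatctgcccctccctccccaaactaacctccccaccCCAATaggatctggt
The Fmod window holds a C/EBP site (TTGCNNAA) 125 bases before the start, and the Prelp window a CCAAT box (CCAAT) 15 bases before it. Among 32851 mouse promoter windows of 250 bases, 9.56% hold TTGCNNAA and 33.8% hold CCAAT. The windows of Fmod and Prelp thus share none of the 7 motifs searched. A match is a match of letters and shows no binding.

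Fmod had log2 values of 10.16, 10.08, 10.02, 10.20 and 10.12 in the double knockout aortas, against 9.75, 9.61, 9.70, 9.76 and 9.47 in the ApoE knockout aortas. ApoE knockout replicate 5 was the lowest, and the gap between the groups was 0.27. The change was 0.46 (95% interval 0.30 to 0.62, SE 0.07, limma adjusted p = 0.0015, n = 5 per group), or 1.38-fold, the largest among the 9. Another probe set of Fmod, dimmer at 8.57 in the double knockout and 7.80 in the ApoE knockout, moved in the same direction by 0.77 (SE 0.12, limma adjusted p = 0.0018 over all probe sets, n = 5 per group).

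Prelp stood at 12.57, 12.55, 12.47, 12.61 and 12.47 in the double knockout, against 12.26, 12.05, 12.14, 12.25 and 12.30 in the ApoE knockout. The groups were separated by 0.17. Its change was 0.33 (95% interval 0.18 to 0.48, SE 0.07, limma adjusted p = 0.0054, n = 5 per group), or 1.26-fold. The call depended on the setting. Relative to the median of genes with a mean above 9, the change was 0.36, as deposited and after centring on array medians. The call was lost after that centring (0.13, adjusted p = 0.19) and with smooth muscle markers as a covariate (0.23, adjusted p = 0.17). It was also lost when a second probe set was averaged in (0.18, adjusted p = 0.053). That second probe set was far dimmer, at 6.56 in the double knockout and 6.53 in the ApoE knockout, against 12.53 and 12.20 for the one used. It changed by 0.03 (SE 0.09), so the probe sets of Prelp differ in level and in change. Whether so dim a probe set could show the change was not tested. Fmod minus Prelp did not differ between the groups after adjustment (-2.42 ± 0.05 in the double knockout and -2.54 ± 0.16 in the ApoE knockout, SD, 5 arrays each, p = 0.048 by exact permutation and 0.12 adjusted).

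Optc, the next gene in the same cluster, encodes opticin, a SLRP best known from the vitreous of the eye. It read 7.15, 7.09, 7.08, 7.13 and 7.24 in the double knockout and 6.48, 6.57, 6.66, 6.74 and 6.84 in the ApoE knockout. Here too the groups did not overlap, with a change of 0.48 (SE 0.08, limma adjusted p = 0.0016, n = 5 per group). The rise passed after quantile normalization (0.38, adjusted p = 0.0085) and after median centring (0.28, adjusted p = 0.027). Il17a lies on the same chromosome, with 573 tested coding genes between it and Optc.

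Podn lies apart from the clusters on chromosome 4 and encodes podocan, a SLRP that restrains the growth of smooth muscle cells in injured mouse arteries. It had 9.89, 10.03, 10.05, 10.03 and 9.83 in the double knockout aortas, against 9.69, 9.56, 9.73, 9.52 and 9.32 in the ApoE knockout aortas. Replicate 5 was the lowest of each group, and 0.10 separated the groups. Podn changed by 0.40 (95% interval 0.20 to 0.59, SE 0.09, limma adjusted p = 0.0074, n = 5 per group), or 1.32-fold. Centring on array medians ended this call (0.19, adjusted p = 0.11). Relative to the median of genes with a mean above 9, the change of Podn was 0.42, as deposited and after centring.

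The cluster on chromosome 13 holds Ecm2, Aspn, Omd and Ogn side by side. Omd encodes osteomodulin, a keratan sulfate SLRP known from bone, and Ogn encodes osteoglycin, also called mimecan, which is abundant in the vessel wall. RefSeq windows before both starts are shown because these neighbors ranked the aortas almost alike.
Omd promoter, chr13:49582212-49582461, plus strand: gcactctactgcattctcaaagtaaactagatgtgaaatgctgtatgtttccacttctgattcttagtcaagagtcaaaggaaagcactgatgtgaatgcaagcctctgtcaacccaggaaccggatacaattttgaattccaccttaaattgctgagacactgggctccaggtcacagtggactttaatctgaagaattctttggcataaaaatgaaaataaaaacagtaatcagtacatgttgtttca
Ogn promoter, chr13:49607765-49608014, plus strand: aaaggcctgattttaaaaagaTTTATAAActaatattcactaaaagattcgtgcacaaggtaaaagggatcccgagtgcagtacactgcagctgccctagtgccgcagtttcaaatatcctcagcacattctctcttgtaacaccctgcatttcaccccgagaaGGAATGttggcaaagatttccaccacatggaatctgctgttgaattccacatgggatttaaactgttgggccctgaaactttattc
The Omd window matched none of the motifs. The Ogn window holds the letters TATAAA on both strands, in overlapping matches 229 and 227 bases before the start, and a TEAD site (GGAATG) 86 bases before it. TATAAA occurs in 12.4% and GGAATG in 12.6% of all windows. Also searched were the Sp1 GC box (GGGCGG, in 32.7% of windows), the AP-1 site (TGANTCA, in 6.75%) and the CArG box (in 1.47%). Of 16 windows of SLRP genes, 0 held an AP-1 site and 0 a CArG box.

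Ogn read 12.70, 12.77, 12.74, 12.80 and 12.81 in the double knockout, against 12.73, 12.67, 12.74, 12.82 and 12.90 in the ApoE knockout. Its change was -0.01 (95% interval -0.15 to 0.13, adjusted p = 0.93, limma, n = 5 per group). Omd read 10.41, 10.68, 10.59, 10.83 and 10.84 in the double knockout and 10.49, 10.56, 10.68, 10.78 and 10.96 in the ApoE knockout, a change of -0.02 (95% interval -0.26 to 0.22, adjusted p = 0.89). The groups overlap for both genes. Ogn minus Omd was 2.09 ± 0.14 in the double knockout and 2.08 ± 0.11 in the ApoE knockout (SD, 5 arrays each, p = 0.87 by exact permutation and 0.87 adjusted).

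Aspn encodes asporin, a class I SLRP with a run of aspartate residues that binds TGF-beta. Aspn had the widest spread of the 9 in the double knockout (SD 0.22), and its values were 10.63, 11.22, 10.88, 11.03 and 10.89 in the double knockout and 10.70, 10.67, 10.72, 10.80 and 11.02 in the ApoE knockout. Replicate 1 was the lowest double knockout aorta and replicate 2 the highest. The change of 0.15 did not pass (95% interval -0.10 to 0.39, SE 0.11, limma adjusted p = 0.33, n = 5 per group), and changes up to 0.39 are within its interval. Omd minus Aspn was -0.26 ± 0.18 in the double knockout and -0.09 ± 0.08 in the ApoE knockout (SD, 5 arrays each, p = 0.087 by exact permutation and 0.14 adjusted).

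Ecm2, at the edge of the cluster, encodes a matrix protein with SLRP-like repeats. It had 11.23, 11.17, 11.32, 11.35 and 11.27 in the double knockout and 11.03, 10.80, 10.78, 11.02 and 11.08 in the ApoE knockout. With no overlap, it rose by 0.33 (SE 0.08, limma adjusted p = 0.012, n = 5 per group). The call was kept after quantile normalization (adjusted p = 0.011) and lost after median centring (0.12, adjusted p = 0.27). Relative to the median of genes with a mean above 9, the change of Ecm2 was 0.35, as deposited and after centring.

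**Figure D3:**
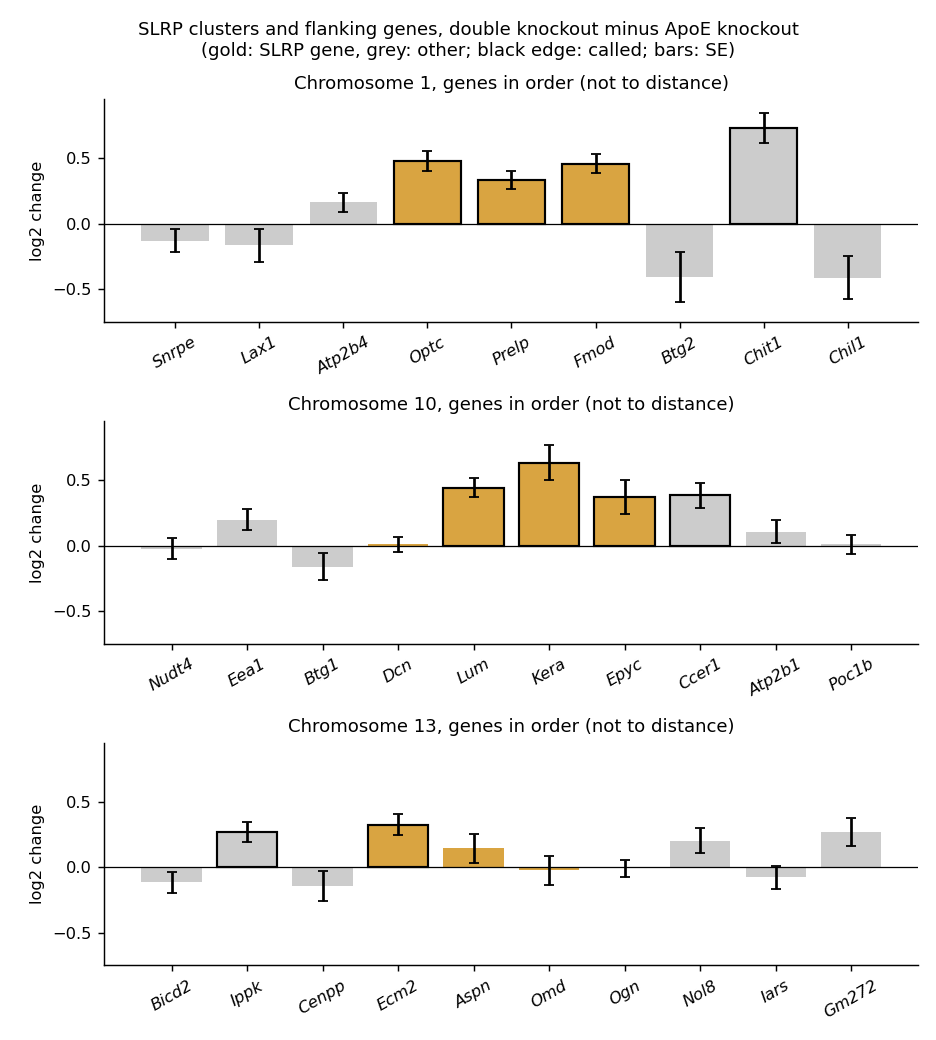
Change (double knockout minus ApoE knockout, log2, bars with SE) of SLRP genes (gold) and 3 tested coding genes on each side (grey), in chromosomal order and not to distance; a black edge marks a called gene. All 3 SLRP genes on chromosome 1 rose, Dcn stood apart from Lum on chromosome 10, and on chromosome 13 Ecm2 alone of the 4 was called.

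Further family genes were measured in 8 of 9 cases, of which 4 rose, Optc, Ecm2, Kera and Epyc, and none fell. Of all genes, 22.8% were called higher and 7.53% lower. All 8 had positive changes, with a median of 0.33, beside 14173 positive changes among the 22180 genes. After quantile normalization Nyx was negative and the median was 0.21. Kera, which encodes the corneal SLRP keratocan, read 5.69, 5.30, 5.48, 5.08 and 5.51 in the double knockout and 4.50, 5.02, 4.70, 5.03 and 4.65 in the ApoE knockout. The change was 0.63 (SE 0.13, limma adjusted p = 0.0061, n = 5 per group), but both means lay below 5.80. That level is the 95th percentile of the means of 1432 olfactory, vomeronasal and taste receptor genes, taken as a stand-in for background, and their own median change was 0.29. Epyc, the gene of the cartilage SLRP epiphycan, averaged 6.38 ± 0.12 in the double knockout and 6.01 ± 0.29 in the ApoE knockout (SD, n = 5, change 0.37, SE 0.13, limma adjusted p = 0.049). After quantile normalization Kera (adjusted p = 0.071) and Epyc (adjusted p = 0.33) were no longer called, which left 2 of the 8. After median centring Optc and Kera (0.43, adjusted p = 0.027) were the 2 called.

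The remaining 4 did not pass. Chad, which encodes the cartilage protein chondroadherin, changed by 0.32 (SE 0.20, limma adjusted p = 0.23, n = 5 per group) and Chadl by 0.26 (adjusted p = 0.11). Podnl1, the closest relative of Podn, changed by 0.23 (adjusted p = 0.21). Nyx, the retinal SLRP nyctalopin, changed by 0.25 (adjusted p = 0.069) and by -0.01 after quantile normalization. Chad ranged widely in the double knockout, with an SD of 0.47.

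**Figure D4:**
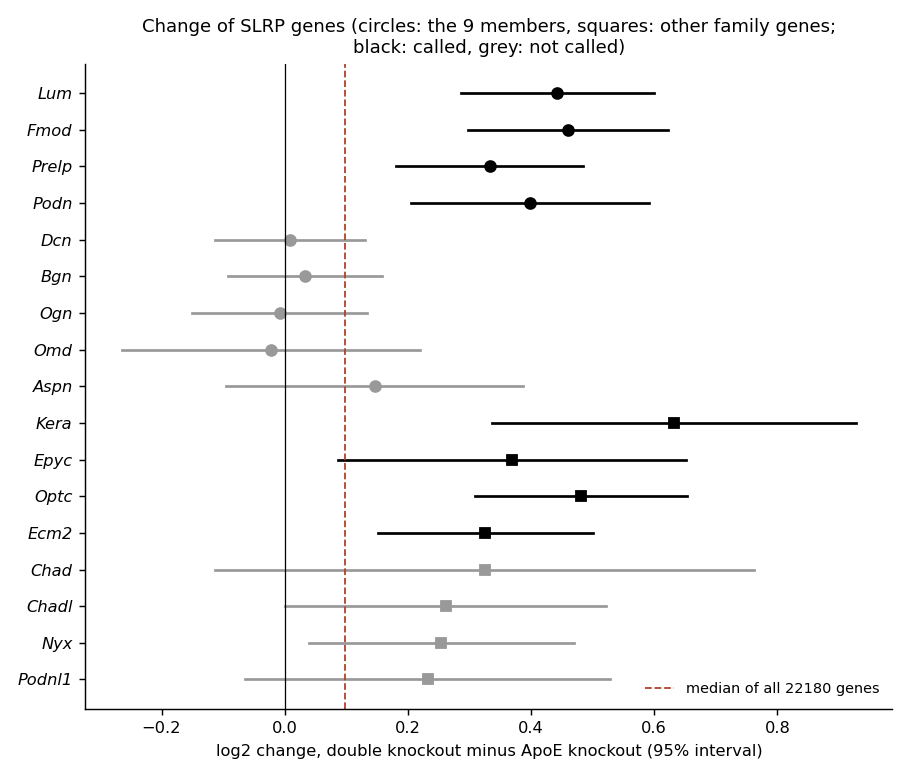
Change (double knockout minus ApoE knockout, log2) with its 95% interval for the 9 members (circles) and 8 further family genes (squares); black is called and grey not called, and the dashed line is the median of all genes, 0.10. The intervals of Dcn, Bgn, Ogn, Omd and Aspn include 0.

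Within each group the members did not rank the aortas in 1 common order. Ogn and Omd ranked the 5 double knockout aortas identically, and the ApoE knockout aortas alike except for replicates 1 and 2. Aspn was highest in ApoE knockout replicate 5 as well, as were Prelp and Bgn. Fmod, Podn and Dcn were lowest in that same aorta, with Fmod 0.19, Podn 0.25 and Dcn 0.025 below their group means. Lum followed neither pattern, with ApoE knockout replicate 2 highest and replicate 4 lowest.

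Marker levels also varied from aorta to aorta. Brown adipocyte markers averaged 8.95 to 10.28 in the double knockout and 8.70 to 10.94 in the ApoE knockout, and replicate 5 was the lowest of each group. Omd was highest in replicate 5 of each group, and lowest in double knockout replicate 1 and ApoE knockout replicate 1, whose brown adipocyte means were 10.01 and 10.94. With the brown adipocyte mean as a covariate, Lum, Fmod, Prelp and Podn stayed called, at changes of 0.42, 0.49, 0.33 and 0.45. Omd did not pass in that fit (-0.10, SE 0.08, adjusted p = 0.37). Smooth muscle markers in the ApoE knockout ranked the aortas as Prelp did, from 10.82 in replicate 2 to 11.42 in replicate 5, but they did not do so in the double knockout. With that mean as a covariate Lum (0.48, adjusted p = 0.033), Fmod (0.53, adjusted p = 0.025) and Podn (0.54, adjusted p = 0.034) remained called and Prelp did not. With the fibroblast marker mean as a covariate the 4 remained called, with Podn at adjusted p = 0.049.

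**Figure D5:**
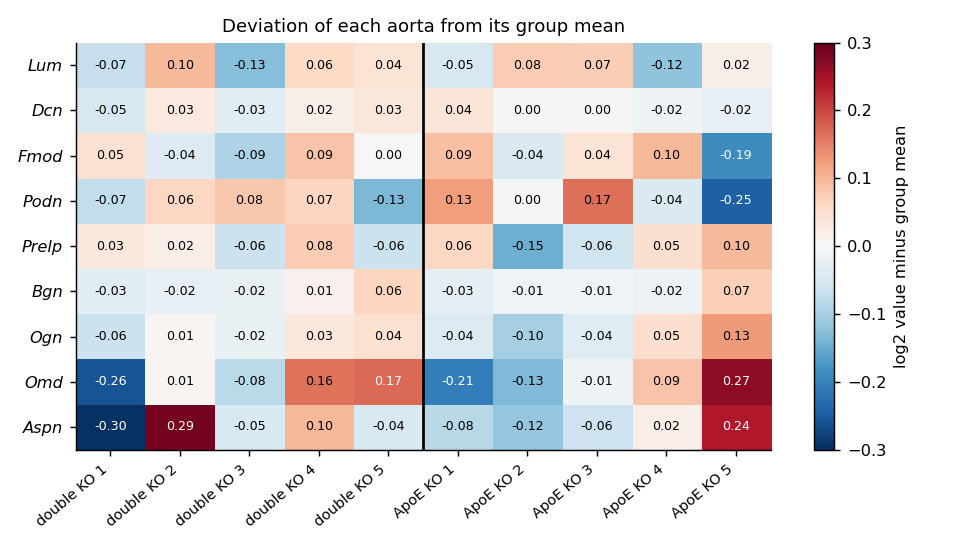
Log2 value of each member minus its group mean in each aorta, double knockout on the left and ApoE knockout on the right. ApoE knockout replicate 5 lies 0.27 above its group mean for Omd and 0.25 below it for Podn, and Dcn and Bgn vary by less than 0.10 throughout.

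Fibroblast markers, which mark a main source of SLRPs, were called higher in 3 of 11 cases (median change 0.07), beside 22.8% of all genes. Among genes with a mean above 9, 11.4% were called higher. All smooth muscle markers, and all fibroblast markers but Col15a1, lie in that range. After median centring 1 was higher and 3 lower, beside 1669 higher and 5641 lower among all genes. The list averaged 10.62 to 10.91 in the double knockout and 10.59 to 10.76 in the ApoE knockout. The called ones were Col15a1 (0.78), Mfap5 (0.34), a microfibril protein gene, and Serpinf1 (0.26). Pdgfra, the fibroblast receptor, did not pass (0.24, adjusted p = 0.14), nor did Pi16 (0.01, adjusted p = 0.93). Of the 11 changes 7 were positive. The negative ones, Cygb (-0.18), Scara5 (-0.17), Clec3b (-0.12) and Dpep1 (-0.05), were not called. Smooth muscle markers were called higher in 4 of 10 (median 0.25), among them Myh11 (0.39), Des (0.54) and Actg2 (0.59). That count was 0 after median centring, where 1669 of all genes were called higher. Leaving out 1 array gave 0 without ApoE knockout replicate 4, 1 without ApoE knockout replicate 2, 2 without double knockout replicate 1, 4 or 5 or ApoE knockout replicate 1 or 3, and 3 to 5 without the others. Chondrocyte markers, which include the proteoglycan gene Acan, were higher in 5 of 9 (median 0.26) and in 1 of 9 after quantile normalization. After median centring 1 was higher and 1 lower, beside 1669 higher and 5641 lower among all genes. As deposited, 2 or 3 were higher without double knockout replicate 1, 2 or 3 or ApoE knockout replicate 2, 3, 4 or 5. The chondrocyte calls included Acan, Col9a1 (0.46), Sox9 (0.42) and Col2a1 (0.37). Of the 9 changes 7 were positive. Cytl1, the brightest of the list, did not pass (-0.24, limma adjusted p = 0.074), nor did Hapln1 (-0.01). Below the receptor level of 5.80 lay 2 of the 9, both among the calls, with Col9a1 at a mean of 5.66. Cardiac muscle markers were higher in 3 of 7 (median 0.62) and in 2 after median centring, where 1669 of all genes were. The calls were Ryr2 (0.83), Tnnt2 (0.62) and Actc1 (0.79).

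Markers of blood cells were mostly lower in the double knockout. Beside the counts of each list stand 22.8% of all genes called higher and 7.53% called lower. Leukocyte markers were lower in 5 of 6 (median -0.99), and in 3 without double knockout replicate 3 or 4 or ApoE knockout replicate 2 or 3, among them the B cell gene Cd79a (-1.40), Itgal (-0.92) and Coro1a (-0.81), and averaged 6.75 to 7.73 in the double knockout and 7.66 to 8.74 in the ApoE knockout. Red cell markers were lower in 2 of 2, Slc4a1 (-3.07) and Epb42 (-1.20), and averaged 6.13 to 6.67 in the double knockout and 8.33 to 9.08 in the ApoE knockout. Endothelial markers were lower in 2 of 10, Tek (-0.46) and Pecam1 (-0.28), and macrophage markers in 1 of 10, Cd163 (-0.81). After median centring 6 of 10 were lower in each of these lists, beside 5641 of all 22180 genes. The endothelial count was 0 without double knockout replicate 3 or 4 or ApoE knockout replicate 2 or 5, 1 without double knockout replicate 1 or ApoE knockout replicate 3 or 4, and 3 without ApoE knockout replicate 1. The macrophage count was 3 without double knockout replicate 2. White adipocyte markers (0 of 7) and mesothelial markers (0 of 7) had no call, with Lep at -0.98 (adjusted p = 0.080) and Muc16 at 0.57 (adjusted p = 0.059) closest to it. Brown adipocyte markers had 1 of 6 higher, Dio2 (0.62), but it alone had a positive change, and the median of the list was -0.42. Skeletal muscle markers had 1 of 7 higher, Actn3 (0.49). Of 4 Schwann cell markers Pmp22 (0.34) was higher and Mbp (-0.36) lower. Counts of the adipocyte, mesothelial, skeletal muscle and Schwann cell lists changed with the array left out, to at most 3 in any direction. Without ApoE knockout replicate 5, 3 brown and 1 white adipocyte markers were lower, and without double knockout replicate 3, 3 mesothelial markers were higher. Skeletal muscle markers had 3 higher without ApoE knockout replicate 2, and none without any other array except double knockout replicates 3 and 5. The part of these cells in the SLRP changes was not tested. The covariate fits above cannot separate it from genotype, because a marker mean that differs between the groups overlaps with group in the model. The smooth muscle marker mean, for example, was 11.40 in the double knockout and 11.11 in the ApoE knockout.

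Collagens are the main partners of SLRPs. Of 15 genes of fibrillar collagens and fibril partners, 9 rose and none fell, beside 22.8% higher and 7.53% lower of all genes. Their median was 0.34, beside 0.10 for all genes. After quantile normalization 10 were higher, and after median centring 3 were, beside 1982 and 1669 of all genes. Col15a1, a basement membrane zone collagen, averaged 9.07 ± 0.24 in the double knockout and 8.29 ± 0.12 in the ApoE knockout (SD, n = 5, change 0.78, limma adjusted p = 0.00094). Col5a1, which starts the assembly of type I collagen fibrils, averaged 8.89 ± 0.08 in the double knockout and 8.30 ± 0.15 in the ApoE knockout (change 0.59, adjusted p = 0.00073). Col6a3, whose protein binds biglycan and decorin, changed by 0.54 (adjusted p = 0.0045). The main fibril genes Col1a2 (0.25, adjusted p = 0.18) and Col3a1 (0.33, adjusted p = 0.062) did not pass, while Col1a1 did (0.41, adjusted p = 0.025). Lox, the enzyme that crosslinks collagen, rose by 0.41 (adjusted p = 0.0081).

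The sugar chains of SLRPs are built by enzymes of the Golgi. Of 20 genes of chondroitin and dermatan sulfate synthesis, 4 were higher, 1 lower and 15 not called (median 0.12), beside 22.8% higher and 7.53% lower of all genes. Chsy3, a chain polymerase, changed by 0.53 (SE 0.12, limma adjusted p = 0.0086, n = 5 per group) and its partner Chpf by 0.26 (adjusted p = 0.016), while the kinase gene Fam20b, which acts on the linker of the chain, fell by 0.23 (adjusted p = 0.022). After median centring 0 of the 20 were higher and 4 lower, beside 1669 higher and 5641 lower among all genes. As deposited, 2 were higher without double knockout replicate 4 or ApoE knockout replicate 3 or 4. In keratan sulfate synthesis 1 of 7 was higher, the sulfotransferase gene Chst2 (0.34, adjusted p = 0.017), which was not called on quantile normalized values (adjusted p = 0.053).

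Among 23 large and cell surface proteoglycans, 6 were higher and 1 lower (median 0.08), beside 22.8% higher among all genes. After median centring 3 were higher and 3 lower, beside 1669 higher and 5641 lower among all genes. Acan, the cartilage proteoglycan aggrecan, averaged 7.46 ± 0.20 in the double knockout and 6.91 ± 0.17 in the ApoE knockout (SD, n = 5, limma adjusted p = 0.0047). Gpc5 (0.63) and Spock1 (0.53) also rose, and the 1 called lower was Srgn (-0.44, adjusted p = 0.0061). Spock1 was not called after quantile normalization (adjusted p = 0.054), and Gpc5 averaged 5.85 in the double knockout and 5.22 in the ApoE knockout, near the level of the receptor genes.

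Proteases that cut SLRPs moved both ways, with 3 of 12 higher and 2 lower (median 0.12), beside 22.8% higher and 7.53% lower of all genes. The counts were 1 higher and 2 lower after median centring, beside 1669 higher and 5641 lower among all genes. Adamts4, an aggrecan-cutting protease, rose by 0.62 (SE 0.11, limma adjusted p = 0.0025, n = 5 per group) and Mmp14, the membrane-bound collagenase, by 0.54 (adjusted p = 0.0068). Gzmb, the granzyme of cytotoxic lymphocytes, which cuts decorin and biglycan, averaged 5.50 ± 0.32 in the double knockout and 6.93 ± 0.71 in the ApoE knockout (adjusted p = 0.0052). Mmp9 was the other protease gene called lower (-0.50, adjusted p = 0.0071). Like most of the leukocyte markers given above, Gzmb was lower in the double knockout. Within the groups the match was partial. ApoE knockout replicate 5 had the highest Gzmb value of its group (7.71) but the lowest leukocyte marker mean (7.66). Double knockout replicate 2 led its group on each measure (6.02 for Gzmb and 7.73 for the leukocyte mean). Whether leukocytes were the source of the Gzmb change was not tested. Of 19 growth factors that SLRPs bind and SLRP receptors, 8 were higher and 2 lower (median 0.17). Of all genes, 22.8% were higher and 7.53% lower. After median centring the balance turned, with 2 higher and 6 lower, beside 1669 higher and 5641 lower among all genes. The lower count was 2 without ApoE knockout replicate 1, 4 without double knockout replicate 2, 1 without double knockout replicate 5 and 0 without any other array. Egfr, the receptor that decorin binds, rose by 0.53 (adjusted p = 0.0035), the growth factor gene Bmp2 by 0.52 (adjusted p = 0.0056) and Ccn4, whose protein binds decorin and biglycan, by 0.42 (adjusted p = 0.0055). Tlr4, a receptor of free biglycan, also rose (0.30, adjusted p = 0.010), whereas Tlr2, another such receptor, did not pass (-0.35, adjusted p = 0.088). The 2 called lower were Tgfbr2 (-0.22, adjusted p = 0.042) and Pdgfb (-0.40, adjusted p = 0.044). Tgfbr2 was not called on quantile normalized values (adjusted p = 0.076). Of the other TGF-beta genes, Tgfb2 (0.39), Tgfb3 (0.25) and Tgfbr1 (0.27) were called higher, and Tgfb1 did not pass (-0.22, adjusted p = 0.20).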

How the data were processed

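Per the labels' protocols, RNA of 10 aortas was labelled and read on Affymetrix Mouse Gene 2.0 ST arrays. The deposited values are 1 log2 number per probe set and array. Base 2 was inferred from their range. Neither the labels nor the headers say how probes were corrected for background, normalized or summarized. The submitters' processing notes name limma but not its role.

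Of 41345 probe sets, 23521 had 1 gene symbol in the platform annotation. For the 1082 genes with several, the brightest was used, which left 22180 genes, with no filter and no further scaling. Names were checked by gene identifier against RefSeq (GRCm38.p6), where 23328 symbols matched and 193 did not. Groups were compared with lmFit and eBayes of limma 3.58.1 (R 4.3.3). The model held group alone, tests were two-sided, and p-values were adjusted by Benjamini-Hochberg across the genes, with 0.05 as threshold. Single measures were compared with a two-sided exact permutation test over every assignment of 5 arrays to a group.

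Members and lists were chosen with earlier results of these data known. The pairs of members, flanking genes, motifs, level ranges and covariates were chosen after their values were seen. All 9 members and the further family genes are named, as are up to 3 called genes with the smallest p of each other list. Genes outside this rule (Col1a1, Col1a2, Col3a1, Lox, Pdgfra, Pi16, Sox9, Tgfb1, Tgfb2, Tgfb3, Tgfbr1, Tlr2, Tlr4) were named for their roles after their values were seen. Clec3b, Cygb, Cytl1, Dpep1, Hapln1, Mmp9, Pdgfb, Scara5, Srgn and Tgfbr2 were also named after their values were seen, for their negative changes. Genes of a list with no single-symbol probe set were not analysed here. RefSeq promoter windows matched 7 of 9 members. The code was tested on simulated data. The number of arrays limits the precision. Alternatives covered normalization, centring, filters, probe set rule, prior, array weights, replicate block, threshold and leaving out each array. The labels give no pairing, so the main model did not pair the mice by replicate number. Deviations of same-numbered arrays from the group means correlated at -0.13 to 0.26 across genes, above 0.1 for 3 of 5. Those of differently numbered arrays correlated at -0.24 to 0.18. Whether same-numbered arrays share a batch was not tested. Figures were drawn with matplotlib 3.10.9.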

Additional observations from a re-analysis of the deposited data

Results flagged for a closer look

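Bgn in ApoE knockout replicate 5, at 13.57, stood apart from the other 4 ApoE knockout aortas, which lay between 13.47 and 13.49. Double knockout replicate 5, at 13.59, was the highest of its group too, but not by as wide a gap. This was 1 of 34 groups of 5 examined over the 17 SLRP genes, and chance marks about 1 in 20. Without that array the change of Bgn was 0.05.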

How the results depend on the processing

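Of the members, Lum and Fmod kept their direction and call under all 23 alternatives, between 0.24 and 0.48 for Lum and between 0.26 and 0.62 for Fmod. Prelp was called in 20 and Podn in 22. The number of members called higher was 4, except 3 with averaged probe sets, 3 with the smooth muscle covariate and 2 after median centring, where 2 were called lower in place of 0. Leaving out any 1 array gave 4 higher and 0 lower, with 4 or 5 members whose groups do not overlap. Genes called in all were 6721, against 4461 after quantile normalization, 3506 and 3476 with only genes above the receptor level (deposited and quantile), 10692 over all probe sets, 2970 at an adjusted p of 0.01, 1254 and 4344 with the smooth muscle and fibroblast covariates, and 5056 to 7022 without 1 array. Of all calls, 75.1% were higher as deposited, 44.4% after quantile normalization and 22.8% after median centring. Values near 0 changed sign. After median centring Dcn was -0.20, Bgn -0.17 and Aspn -0.059, beside a median of -0.23 for genes with a mean above 9. Omd was 0.023 after quantile normalization, filtered or not, and 0.011 with array weights, where Ogn was 0.0021. With the fibroblast covariate Dcn was -0.0028 and Aspn -0.073, and with the smooth muscle covariate Bgn was -0.012. Without 1 array Ogn ran from -0.033 to 0.023 and Omd from -0.074 to 0.045. The causes were not tested. With the replicate number as a block, 6594 genes and 4 members were called, all 4 higher, and 3 of 5 arrays in each group correlated best with their own number. Signal over background limits the lists more than the members, since 8653 of all genes, but 0 of the 9, lay below the receptor level. The covariates were chosen after seeing the data.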

Other observations

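The genes whose profile over the 10 arrays lay closest to a called member were found by the root-mean-square difference of log2 values after each gene's mean was subtracted, leaving out predicted genes, clones and receptor genes. For Lum these were Fam161a (0.05), Ppef2 (0.06) and Trim32 (0.06), beside a root-mean-square deviation of 0.24 for Lum itself. For Fmod they were Fbxl17 (0.04), Fam71e2 (0.07) and Med14 (0.07). Prelp was closest to Slco3a1 (0.04), Appl1 (0.05) and Hsf4 (0.06), and Podn to Pi4k2b (0.07), Celf2 (0.07) and Zfc3h1 (0.07). None of the 12 is in the gene lists examined.

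Genes flanking the clusters gave a few calls. Chit1, a chitinase gene of macrophages beyond Fmod on chromosome 1, rose by 0.73 (limma adjusted p = 0.0011, 5 arrays per group), from values below the level of the receptor genes, while its neighbors Btg2 and Chil1 did not pass (-0.41 for each). On chromosome 10, Ccer1, beyond Epyc, rose by 0.38 (adjusted p = 0.012), likewise below that level, and Btg1, before Dcn, did not pass (-0.16, adjusted p = 0.24). On chromosome 13, Ippk rose by 0.27 (adjusted p = 0.020), with Cenpp, which lies between it and Ecm2, not called (-0.14, adjusted p = 0.36).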
